A study of Mus musculus with 6 samples.

Results

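The aryl hydrocarbon receptor (AHR) and its targets were examined as 10 named mouse genes out of the 55401 genes counted in each library. The 10 genes are Ahr, Arnt, Ahrr, Tiparp, Cyp1a1, Cyp1a2, Cyp1b1, Nqo1, Aldh3a1 and Ugt1a6a. They were chosen by name from what is known of the pathway, after the levels of Cyp1b1, Ahrr, Cyp1a1 and Nqo1 in these same libraries had been seen. Their levels and fold changes are therefore given as a description, without p-values. Counts were found for 9 of the 10 genes and the same 9 were tested, while Cyp1a2 had no count in any library.

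The cells were NIH3T3, an immortalized line of mouse embryonic fibroblasts, and bulk RNA-Seq of their poly(A)-selected RNA gave 6 libraries. EV denotes cells that carry an empty vector and were treated with DMSO, the vehicle (2 libraries). TC denotes cells with stable expression of the fusion protein TAZ-CAMTA1 that were treated with DMSO (1 library), and TC + ATA denotes TC-expressing cells treated with aurintricarboxylic acid (ATA) at 10 μM (3 libraries). Whether these cells are a clone or a pool is not given in the sources used here. All cells were seeded for 16 h without treatment and then kept in ATA or DMSO for 48 h. The sources used here do not say whether the libraries of a group came from separate cultures, so p-values measure only the spread between these libraries, which may be technical. ATA was given to TC-expressing cells, and EV cells with ATA were not analysed here, so an effect of ATA without the fusion cannot be separated. The comparison of TC with EV is called the fusion step below, that of TC + ATA with TC the ATA step, and that of TC + ATA with EV the combined change. The single TC library entered the fusion step and the ATA step on opposite sides. With 1 TC library, the spread behind every test was estimated in EV and TC + ATA alone, and TC was assumed to vary as they do. An adjusted p at the fusion or ATA step, and each statement below that a gene rose or fell there, therefore lacks a replicate of TC.

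The libraries held 58471484 to 74413193 counts. Levels below are in CPM, counts scaled to a common library total after TMM normalization, and 3 counts correspond to between 0.0393 and 0.0528 CPM. The 9 fibroblast markers summed to between 14705 and 19393 CPM in each library. Markers of hepatocytes, a cell type in which this receptor is well known, stayed between 0.0787 and 0.339 CPM, epithelial markers between 0.105 and 0.494 CPM, endothelial markers between 1.51 and 3.44 CPM and immune markers between 2.73 and 8.51 CPM. The endothelial sum was lower in EV, at 1.51 to 2.22 CPM, than in TC, at 3.44 CPM, or in TC + ATA, at 2.66 to 3.23 CPM, and its part in the results was not tested. The epithelial sum was also lower in EV, at 0.105 to 0.134 CPM, than in TC and TC + ATA, at 0.299 to 0.494 CPM, and its part in the results was not tested. The immune sum was 6.30 to 6.66 CPM in EV, 5.14 CPM in TC and 2.73 to 8.51 CPM in TC + ATA. Both ends of its range were thus TC + ATA libraries, and its part in the results was not tested. At the fusion step 2 of the 9 fibroblast markers were called higher, Col1a1 at a log2 fold change of 0.53 and Vim at 0.64, and 3 were called lower, Pdgfra at -1.20, Thy1 at -1.47 and Fn1 at -0.83, with a median of 0.05 over the list. The calls of Col1a1, Vim and Fn1 were lost when only the groups compared were fitted, and that of Col1a1 also without TC + ATA replicate 2. At the ATA step edgeR called none of the 9, against 0.426% of all tested genes called higher and 0.156% lower. DESeq2 called 2 higher there, Fn1 and Pdgfrb, at edgeR log2 fold changes of 0.55 and 0.50. Over all genes it called 236 higher and 85 lower. For the combined change 5 of the 9 were called higher and 2 lower, against 18.0% and 18.6%. In bulk RNA, fewer cells that express a gene and less of its RNA per cell cannot be told apart.

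AHR is a transcription factor of the bHLH-PAS family that waits in the cytoplasm with HSP90 and other chaperones until a ligand binds. Planar aromatic pollutants such as dioxins, and metabolites of tryptophan, are known ligands. The receptor then enters the nucleus, pairs with ARNT and binds DNA elements whose core reads GCGTG, next to genes for drug-metabolizing enzymes. The induced genes include the AHR repressor and TIPARP, which restrain the receptor in a feedback loop. In fibroblasts Cyp1b1 is the CYP1 gene with substantial basal expression.

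To show where this core element lies beside the members, the 250 bases before the RefSeq transcription start are printed for 4 of them whose levels the results below turn on. Sequences are from RefSeq on GRCm38.p6 and run 5′ to 3′ toward the gene, and capitals mark GCGTG or its reverse complement CACGC. The Cyp1a1 window is chr9:57697363-57697612 on the plus strand, and the Cyp1b1 window is chr17:79715062-79715311 on the minus strand. The Ahrr window is chr13:74292332-74292581 on the minus strand, and the Tiparp window is chr3:65528197-65528446 on the plus strand.
Cyp1a1: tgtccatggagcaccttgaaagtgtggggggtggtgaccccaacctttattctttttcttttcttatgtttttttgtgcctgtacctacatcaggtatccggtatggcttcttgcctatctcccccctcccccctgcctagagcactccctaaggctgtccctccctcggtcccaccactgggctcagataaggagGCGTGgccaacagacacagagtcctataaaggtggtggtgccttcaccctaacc
Cyp1b1: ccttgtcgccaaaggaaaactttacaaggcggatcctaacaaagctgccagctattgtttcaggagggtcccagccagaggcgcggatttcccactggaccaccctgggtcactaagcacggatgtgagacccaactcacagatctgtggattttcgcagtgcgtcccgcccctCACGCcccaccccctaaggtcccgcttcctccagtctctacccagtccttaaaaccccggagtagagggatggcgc
Ahrr: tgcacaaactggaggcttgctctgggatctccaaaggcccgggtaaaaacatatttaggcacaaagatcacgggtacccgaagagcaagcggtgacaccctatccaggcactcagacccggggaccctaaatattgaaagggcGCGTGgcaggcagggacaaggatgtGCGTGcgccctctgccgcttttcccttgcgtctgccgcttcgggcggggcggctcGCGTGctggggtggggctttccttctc
Tiparp: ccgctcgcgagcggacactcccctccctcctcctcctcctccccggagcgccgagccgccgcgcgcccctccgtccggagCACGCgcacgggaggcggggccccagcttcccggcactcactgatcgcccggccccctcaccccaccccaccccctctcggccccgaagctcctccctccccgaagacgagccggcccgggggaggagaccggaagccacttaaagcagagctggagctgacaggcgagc

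Of the 10 members, 8 had an entry in the promoter table, and 5 of these, namely Ahrr, Arnt, Cyp1a1, Cyp1b1 and Tiparp, held GCGTG on either strand. The same letters occurred in 28.2% of all 32851 promoter windows of this length. Counted from the start site, the Cyp1a1 copy begins at position -54, the Arnt copy at -29 and the Ahrr copies at -107, -82 and -27, all on the gene's strand. The Cyp1b1 copy begins at -76 and the Tiparp copy at -170, both on the opposite strand. The longer motif TNGCGTG, which contains the shorter one, was found in Ahrr as TCGCGTG from -29 and in none of the other 7 members, against 4.10% of all windows. The windows of Cyp1a2, Nqo1 and Ugt1a6a lacked both motifs, which says only that these letters are not in the 250 bases read. GENCODE M21 places the start of Cyp1a1 further upstream, at 57687928, and that of Tiparp inside its window, at 65528410. A match is a description of the letters and not of binding.

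The receptor gene was expressed at a low level, and its partner at a higher level that was similar in all groups. Ahr (ENSMUSG00000019256, chr12:35497974-35535038) encodes the receptor and was at 4.76 and 5.32 CPM in EV, 7.95 CPM in TC and 9.43, 8.77 and 8.89 CPM in TC + ATA. The groups did not overlap, with EV lowest and TC + ATA highest. The log2 fold change of Ahr was 0.66 ± 0.14 (SE) at the fusion step, 0.18 ± 0.13 at the ATA step and 0.84 ± 0.11 for the combined change. Reads over 127 of its 6163 exonic bases could also come from the antisense gene Gm48236, because the use of strand in counting is not given in the sources used here.

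Arnt (ENSMUSG00000015522, chr3:95434388-95497240) encodes the DNA-binding partner that AHR shares with the hypoxia-inducible factors. It was at 62.5 and 64.7 CPM in EV, 62.8 CPM in TC and 60.5, 56.6 and 59.7 CPM in TC + ATA. The TC library lay between both EV libraries, and the 3 TC + ATA libraries lay below all others. Its log2 fold change was -0.02 ± 0.08 at the fusion step, -0.09 ± 0.08 at the ATA step and -0.11 ± 0.06 for the combined change.

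The feedback genes had their larger log2 fold change at different steps, Ahrr at the ATA step and Tiparp at the fusion step. Ahrr (ENSMUSG00000021575, chr13:74211118-74292331) encodes the AHR repressor, which competes with AHR for ARNT and for the element shown above. It had 9 and 12 counts in EV, 11 counts in TC and 34, 44 and 57 counts in TC + ATA. In CPM these are 0.120 and 0.157 in EV, 0.158 in TC and 0.598, 0.621 and 0.820 in TC + ATA, so TC matched the upper EV library and every TC + ATA library was well above these. The ratio of TC + ATA to TC was 4.32, with a 95% interval of 2.34 to 8.86 that covers counting error only, and the fitted log2 fold change was 2.09 ± 0.58. This interval treats each count as independent and is too narrow if both reads of a pair were counted. The log2 fold change of Ahrr at the fusion step was 0.19 ± 0.62.

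Tiparp (ENSMUSG00000034640, chr3:65528410-65555518) encodes a mono-ADP-ribosyltransferase that modifies AHR. Its level was 40.6 and 43.7 CPM in EV, 89.1 CPM in TC and 88.5, 86.6 and 87.6 CPM in TC + ATA. Both EV libraries were low and the other 4 libraries were high, with the 3 TC + ATA libraries just below TC. For Tiparp the log2 fold change was 1.08 ± 0.08 at the fusion step and -0.03 ± 0.08 at the ATA step. An antisense gene, 4931440P22Rik, covers 223 of the 4358 exonic bases of Tiparp.

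The CYP1 genes encode the monooxygenases by which AHR activity is usually read, and the 3 members behaved in 3 ways. Cyp1a1 (ENSMUSG00000032315, chr9:57687928-57703824), the most inducible of them, had 2 and 3 counts in EV, 153 counts in TC and 243, 289 and 285 counts in TC + ATA. This corresponds to 0.0267 and 0.0393 CPM in EV, 2.2 CPM in TC and 4.28, 4.08 and 4.10 CPM in TC + ATA. The groups did not overlap and were ordered EV, TC, TC + ATA. The ratio of TC to EV was 66.6 (95% interval 27.9 to 208), and that of TC + ATA to TC was 1.88 (1.58 to 2.25), again for counting error only. The fitted log2 fold changes were 5.98 ± 0.34 for the fusion step, which rests on 5 EV counts in all, and 0.91 ± 0.22 for the ATA step.

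Cyp1a2 (ENSMUSG00000032310, chr9:57676937-57683703), the liver isoform that lies next to Cyp1a1 in the genome, had 0 counts in all 6 libraries. If counts are independent of each other, a count of 0 allows up to 3 counts, which is at most 0.0528 CPM in the library with the highest such limit.

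Cyp1b1 (ENSMUSG00000024087, chr17:79701537-79715061), the fibroblast CYP1 gene, was at 58.2 and 51.4 CPM in EV, 41.4 CPM in TC and 82.1, 80.7 and 80.0 CPM in TC + ATA. TC was the lowest library and the 3 TC + ATA libraries were the highest, with EV between them and no overlap. The log2 fold change of Cyp1b1 was -0.41 ± 0.09 at the fusion step and 0.97 ± 0.09 at the ATA step. With ATA its level thus lay 1.96-fold above the TC library and 1.48-fold above the EV mean, at a log2 fold change of 0.56 ± 0.07 for the combined change.

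**Figure D1:**
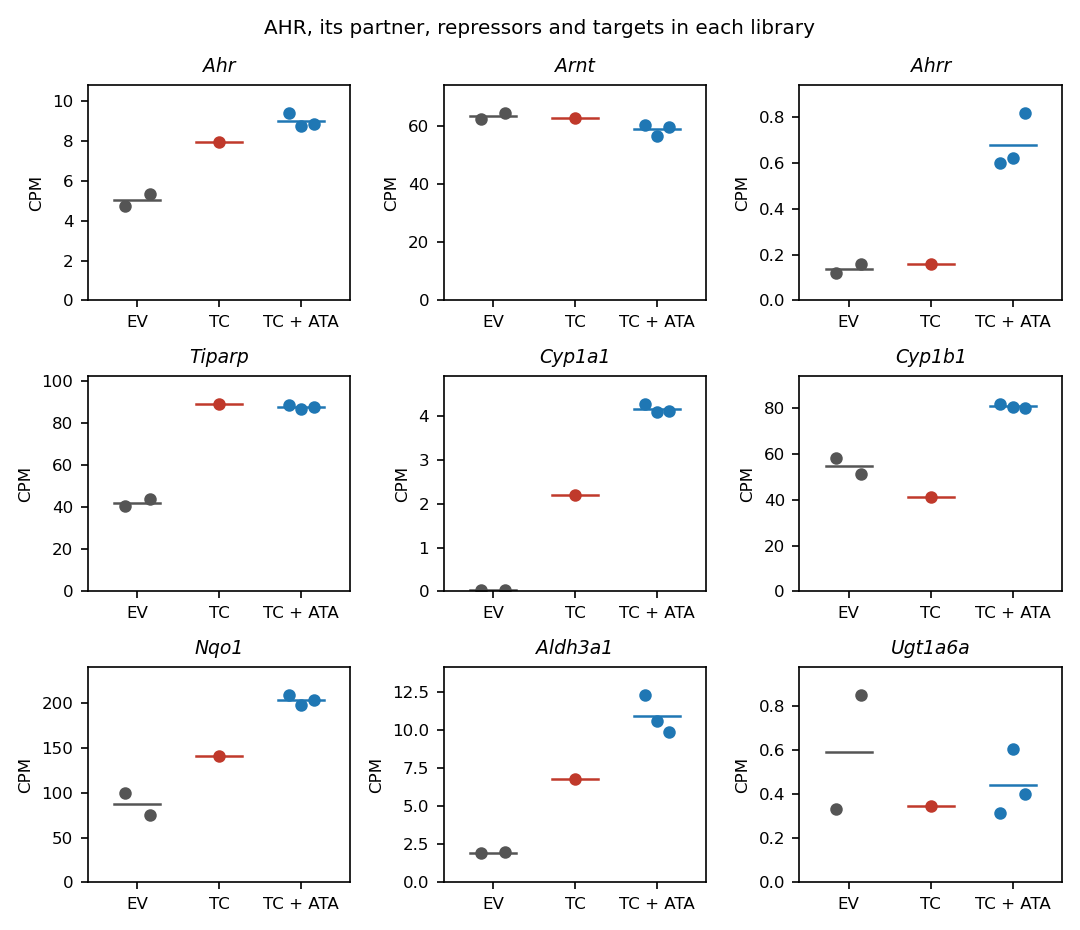
Level of each expressed member in every library (vertical axes, CPM after TMM scaling, each starting at 0) for EV, TC and TC + ATA. Each point is 1 library and the horizontal bars are group means. Cyp1b1 is lowest in TC at 41.4 CPM and highest in TC + ATA at 80.0 to 82.1 CPM, whereas Tiparp is between 86.6 and 89.1 CPM in TC and TC + ATA.

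The other enzymes were higher at both steps, apart from Ugt1a6a. Nqo1 (ENSMUSG00000003849, chr8:107388225-107403206) encodes a quinone reductase that is known as a target of both AHR and NRF2. It was at 100 and 75.4 CPM in EV, 141 CPM in TC and 209, 198 and 203 CPM in TC + ATA. The groups did not overlap, although the 2 EV libraries differed by more than the 3 TC + ATA libraries did. For Nqo1 the log2 fold change was 0.68 ± 0.14 at the fusion step and 0.53 ± 0.14 at the ATA step.

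Aldh3a1 (ENSMUSG00000019102, chr11:61207537-61218421) encodes an aldehyde dehydrogenase of the classical dioxin-responsive gene battery. Its level was 1.93 and 1.98 CPM in EV, 6.77 CPM in TC and 12.3, 10.6 and 9.85 CPM in TC + ATA. The EV libraries were close together, TC lay 3.47-fold above their mean, and every TC + ATA library lay above TC. Its log2 fold change was 1.79 ± 0.17 at the fusion step and 0.69 ± 0.16 at the ATA step.

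Ugt1a6a (ENSMUSG00000054545, chr1:88134809-88218997) encodes a glucuronosyltransferase of phase II metabolism and had 25 and 65 counts in EV, 24 in TC and 18, 43 and 28 in TC + ATA. The groups overlapped, and EV replicate 2 was the highest library. The log2 fold change was -0.78 ± 0.69 at the fusion step and 0.36 ± 0.66 at the ATA step, and without EV replicate 2 the fusion step value was 0.05. Of its 4312 exonic bases, 2170 are shared on the same strand with other Ugt1a genes. How reads over these bases were counted is not given in the sources used here, so the value is uncertain.

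Compared per kilobase of exonic sequence, the levels of the members covered a wide range. In TC + ATA the means were 131 CPM per kb for Nqo1, 20.1 for Tiparp, 13.9 for Cyp1b1, 7.36 for Arnt and 5.63 for Aldh3a1. Cyp1a1 at 1.49 CPM per kb and Ahr at 1.47 CPM per kb followed and overlapped between libraries, as did Ugt1a6a at 0.103 and Ahrr at 0.0720 CPM per kb. In TC the order was Nqo1 at 90.6 CPM per kb, Tiparp at 20.5, Arnt at 7.84, Cyp1b1 at 7.09, Aldh3a1 at 3.49, Ahr at 1.29, Cyp1a1 at 0.791, Ugt1a6a at 0.0802 and Ahrr at 0.0168. In EV, Nqo1 was again highest at a mean of 56.5 CPM per kb. Tiparp at 9.67 and Cyp1b1 at 9.39 CPM per kb overlapped there, Arnt was at 7.94 and Aldh3a1 at 1.01, and Ahr was at 0.818 CPM per kb. Ugt1a6a stood at 0.138, Ahrr at 0.0147 and Cyp1a1 at 0.0119 CPM per kb in EV, the last pair overlapping. Among the 9 expressed members Cyp1a1 was thus lowest in EV, together with Ahrr, and lay level with the receptor gene in TC + ATA.

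Calls were then counted at each step. A gene was called when its adjusted p in edgeR's quasi-likelihood test was at most 0.05 over the 18539 genes tested. At the fusion step, 5 of the 9 tested members were called higher (Ahr, Cyp1a1, Nqo1, Tiparp and Aldh3a1) and 1 was called lower (Cyp1b1), against 14.8% of all tested genes called higher and 13.2% called lower. With library size scaling, which shifted the median of all genes in this comparison by -0.11 on the log2 scale, 39.6% of all calls were higher in place of 52.7%, and neither the calls nor the directions of the members changed. At the ATA step, 1 member was called higher (Cyp1b1) and 0 lower, against 0.426% and 0.156% of all tested genes. At an unadjusted p under 0.05 the counts for the members at the ATA step were 5 higher and 0 lower, and DESeq2 called 3 higher and 0 lower. Over all genes DESeq2 called 236 higher and 85 lower at this step. Genes at an unadjusted p under 0.05 were not counted over all genes, so those counts have no background beside them.

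The call of Cyp1b1 at the ATA step was lost without TC + ATA replicate 3, where its log2 fold change was 0.98, and its call at the fusion step was lost when only the groups compared were fitted. For the combined change, 7 members were called higher and 0 lower, against 18.0% and 18.6% of all tested genes. The 7 were all tested members except Arnt and Ugt1a6a. At an unadjusted p under 0.05 these counts were also 7 and 0, and DESeq2 gave 7 and 0. Over all genes DESeq2 called 3324 higher and 3025 lower in this comparison. With library size scaling 38.2% of all calls in this comparison were higher, in place of 49.2%. Since the members were chosen with these contrasts known, the shares are given beside the background and no more is read from them.

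Levels were also compared library by library. Every TC + ATA library exceeded TC for 6 members (Ahr, Ahrr, Cyp1a1, Cyp1b1, Nqo1 and Aldh3a1) and was below it for 2 (Arnt and Tiparp), against 30.5% and 32.7% of all tested genes. The TC library lay above both EV libraries for Ahr, Ahrr, Cyp1a1, Nqo1, Tiparp and Aldh3a1 and below both for Cyp1b1, against 38.9% and 40.0% of all tested genes. For Ahrr the ratio of TC to EV was 1.14, with a 95% counting interval of 0.496 to 2.47 that includes no change. The TC + ATA libraries exceeded both EV libraries for 7 members and were below both for Arnt, against 28.7% and 30.1%. The libraries were higher at both steps for 5 members (Ahr, Ahrr, Cyp1a1, Nqo1 and Aldh3a1), against 7.00% of all tested genes. The median log2 fold change of the 9 members was 0.66 at the fusion step, 0.53 at the ATA step and 1.06 for the combined change, and that of all tested genes was -0.03, 0.00 and -0.01.

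**Figure D2:**
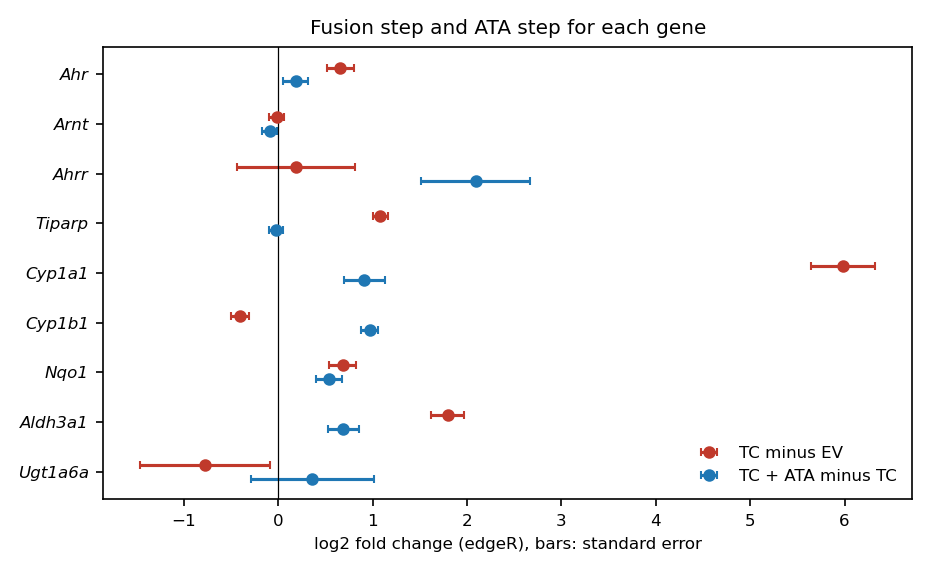
Log2 fold change of each tested member (horizontal axis) at the fusion step and at the ATA step, with bars for the standard error of the fit. Tiparp has 1.08 at the fusion step and -0.03 at the ATA step, Ahrr has 0.19 and 2.09, and Cyp1b1 has -0.41 and 0.97.

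Around the members, 86 genes in 8 lists of AHR cofactors, other targets and neighbouring pathways were counted, of which 72 were tested. At the fusion step 25 of them were called higher and 13 lower, against 14.8% and 13.2% of all tested genes. At the ATA step 2 were called higher and 0 lower, against 0.426% and 0.156%, and for the combined change 32 were called higher and 11 lower, against 18.0% and 18.6%. At an unadjusted p under 0.05, 10 were higher and 3 lower at the ATA step, and DESeq2 called 4 higher and 0 lower. Over all genes DESeq2 called 236 higher and 85 lower at this step. Here and in each list below, counts at an unadjusted p have no count over all genes beside them. The genes named from each list are those called at the ATA step and those with the largest changes called at the fusion step, among genes with a mean of at least 1 CPM. Npas2 and Ido2 lie outside this rule and were named after their values were seen. Ido2 passed the filter on low counts only through TC + ATA. It is among the 32 called higher for the combined change and the 10 higher at an unadjusted p at the ATA step. All lists were chosen with earlier results of these data known, so the counts and p-values below are a description.

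The receptor complex and its coregulators were 10 genes. At the fusion step 3 were called higher and 2 lower, against 14.8% and 13.2% of all tested genes. Their median log2 fold change was 0.07, against -0.03 for all tested genes. Hsp90aa1, an HSP90 chaperone that holds the unliganded receptor, rose from 876 and 855 CPM in EV to 1970 CPM in TC, at a log2 fold change of 1.19 ± 0.09 (edgeR's quasi-likelihood test, adjusted p = 2.06e-05). The corepressor Nrip1 rose by a log2 fold change of 0.94 ± 0.12 (adjusted p = 0.00037) and the coactivator Ncoa3 by 0.90 ± 0.08 (adjusted p = 6.35e-05). Arnt2, a relative of Arnt that is best known from neurons, fell by 0.73 ± 0.12 on the log2 scale (adjusted p = 0.00200), and the coactivator Ncoa2 fell by 0.55 ± 0.08 (adjusted p = 0.00117). With ATA, edgeR and DESeq2 called none of the 10 relative to TC, and at an unadjusted p under 0.05 there were 0 higher and 1 lower.

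Of 17 other reported AHR targets, 15 were tested. At the fusion step 6 were called higher and 3 lower, against 14.8% and 13.2% of all tested genes. Ereg, which encodes the growth factor epiregulin, rose by 1.31 ± 0.10 (adjusted p = 2.54e-05), the efflux transporter gene Abcg2 by 1.11 ± 0.09 (adjusted p = 2.55e-05) and the amino acid transporter gene Slc7a5 by 0.94 ± 0.09 (adjusted p = 9.26e-05). Vav3, which encodes a guanine nucleotide exchange factor, fell by 1.40 ± 0.22 (adjusted p = 0.00169), the cell cycle inhibitor gene Cdkn1b by 0.43 ± 0.10 (adjusted p = 0.0127) and the phospholipase gene Pla2g4a by 0.37 ± 0.08 (adjusted p = 0.00985), all on the log2 scale. The calls of Cdkn1b and Pla2g4a were lost when only the groups compared were fitted. None of the 15 was called by edgeR or DESeq2 at the ATA step, and at an unadjusted p under 0.05 there were 2 higher and 1 lower. For these targets the median log2 fold change was 0.37 at the fusion step and 0.08 at the ATA step.

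The NRF2 targets are genes of the antioxidant response, to which Nqo1 also belongs. At the fusion step 10 of 10 were called higher, against 14.8% of all tested genes. Their median log2 fold change was 0.93, against -0.03 for all tested genes. Gsta4, a glutathione transferase gene, was at 141 and 106 CPM in EV, 497 CPM in TC and 600, 597 and 604 CPM in TC + ATA. Its log2 fold change at the fusion step was 2.01 ± 0.14 (edgeR, adjusted p = 1.2e-05), and those of the heme oxygenase gene Hmox1 and the thioredoxin reductase gene Txnrd1 were 1.36 ± 0.09 (adjusted p = 1.15e-05) and 1.25 ± 0.09 (adjusted p = 1.08e-05). The median of the list at the ATA step was 0.07, and edgeR and DESeq2 called none of the 10. At an unadjusted p under 0.05 there were 1 higher and 1 lower. For the combined change 9 of the 10 were called higher, against 18.0% of all tested genes.

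The genes that act beside the AHR enzymes in phase I and phase II metabolism were 13, of which 12 were tested, and here ATA gave a call. Ephx1, which encodes microsomal epoxide hydrolase, was at 103 and 86.2 CPM in EV, 172 CPM in TC and 280, 274 and 268 CPM in TC + ATA. Counts at the ATA step were 1 called higher and 0 lower, against 0.426% and 0.156% of all tested genes. They were 3 and 0 at an unadjusted p under 0.05 and 3 and 0 by DESeq2. DESeq2 also called Gstm1 and Cyb5a there, both lowest in TC, at log2 fold changes of 0.65 and 0.45. On the same strand, 72 of the exonic bases of Ephx1 are shared with Gm36961. Like Nqo1, Ephx1 did not overlap between groups and was higher at both steps, with log2 fold changes of 0.86 ± 0.11 (edgeR, adjusted p = 0.000355) and 0.68 ± 0.11 (adjusted p = 0.0316). The second call was lost in each fit that left out a TC + ATA library, with adjusted p from 0.16 to 0.182. The cytochrome b5 reductase gene Cyb5r3 rose by 0.40 ± 0.11 at the fusion step (adjusted p = 0.023), while the methyltransferase gene Tpmt fell by 1.19 ± 0.24 (adjusted p = 0.00541). Gstm1, a glutathione transferase gene with close relatives whose reads may be hard to tell from its own, fell by 0.50 ± 0.14 (adjusted p = 0.0246). Cyb5a, the cytochrome b5 gene, fell by 0.27 ± 0.08 (adjusted p = 0.0402). The calls of Cyb5r3 and Cyb5a were lost in each fit without a TC + ATA library and with only the groups compared (adjusted p = 0.231 and 0.318), that of Cyb5a also with DESeq2 (0.0711), and that of Gstm1 without TC + ATA replicate 2 (0.0534) or 3 (0.0601).

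HIF targets were included because ARNT is also the partner of the hypoxia-inducible factors. At the fusion step 2 of 10 were called higher and 4 lower, against 14.8% and 13.2% of all tested genes. Adm, the adrenomedullin gene, was at 26.3 and 26.8 CPM in EV, 7.26 CPM in TC and 15.6, 15.6 and 14.3 CPM in TC + ATA. It was lowest in TC as Cyp1b1 was, but stayed below EV with ATA. Its log2 fold change was -1.87 ± 0.12 at the fusion step (edgeR, adjusted p = 6.63e-06) and 1.06 ± 0.11 at the ATA step (adjusted p = 0.00547), and without TC + ATA replicate 3 the latter had an adjusted p of 0.0573. The glucose transporter gene Slc2a1 and the glycolytic gene Pgk1 rose at the fusion step by 0.90 ± 0.09 (adjusted p = 0.000128) and 0.78 ± 0.15 (adjusted p = 0.00403). The kinase gene Pdk1 fell by 0.57 ± 0.11 (adjusted p = 0.00442) and Ankrd37 by 1.11 ± 0.36 (adjusted p = 0.0456), a call that was lost with DESeq2 (adjusted p = 0.0815), without a filter on low counts (0.0511), with only the groups compared (0.0879), without EV replicate 2 (0.0678) and in each fit without a TC + ATA library (0.0554 to 0.0812). Adm was the 1 HIF target called higher at the ATA step and 0 were called lower, against 0.426% and 0.156% of all tested genes. The counts were also 1 and 0 at an unadjusted p under 0.05 and by DESeq2.

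Of 11 further bHLH-PAS genes, 9 were tested. At the fusion step 2 were called higher and 1 lower, against 14.8% and 13.2% of all tested genes. The genes of this list called at the fusion step all belong to the circadian clock. For the combined change 4 were called higher and 1 lower, against 18.0% and 18.6% of all tested genes. Npas2, a relative of Clock, had 13 and 15 counts in EV, 66 in TC and 49, 63 and 72 in TC + ATA. It rose by 2.35 ± 0.42 on the log2 scale, without a p-value here because it was named after its value was seen. Clock was at a log2 fold change of 0.73 ± 0.12 (edgeR, adjusted p = 0.00155). Arntl, which encodes the partner of Npas2 and Clock, was at -0.56 ± 0.10 (adjusted p = 0.00364). At the ATA step none was called by edgeR or DESeq2, and at an unadjusted p under 0.05 there were 2 higher and 0 lower.

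Among 11 enzymes of tryptophan breakdown, a source of AHR ligands, 6 were tested. None was called at the fusion step by edgeR or DESeq2, with 0 higher and 1 lower at an unadjusted p under 0.05. The ATA step also gave no call by either tool, and its count at an unadjusted p is left out because it rests on Ido2 alone. Ido2, an indoleamine dioxygenase gene, had 0 counts in both EV libraries and in TC, and 12, 19 and 11 counts in TC + ATA. Set against a limit of 3 counts per library, its observed mean in TC + ATA was 4.92-fold the limit in TC and 5.30-fold that in EV. The counting error of the TC + ATA libraries is not included, so these values are not lower bounds. Ido2 passed the filter on low counts only through TC + ATA and was named after its values were seen, so no p-value is given for it. The last list, 4 genes of other xenobiotic receptors and their targets, had no gene with enough counts to be tested.

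**Figure D3:**
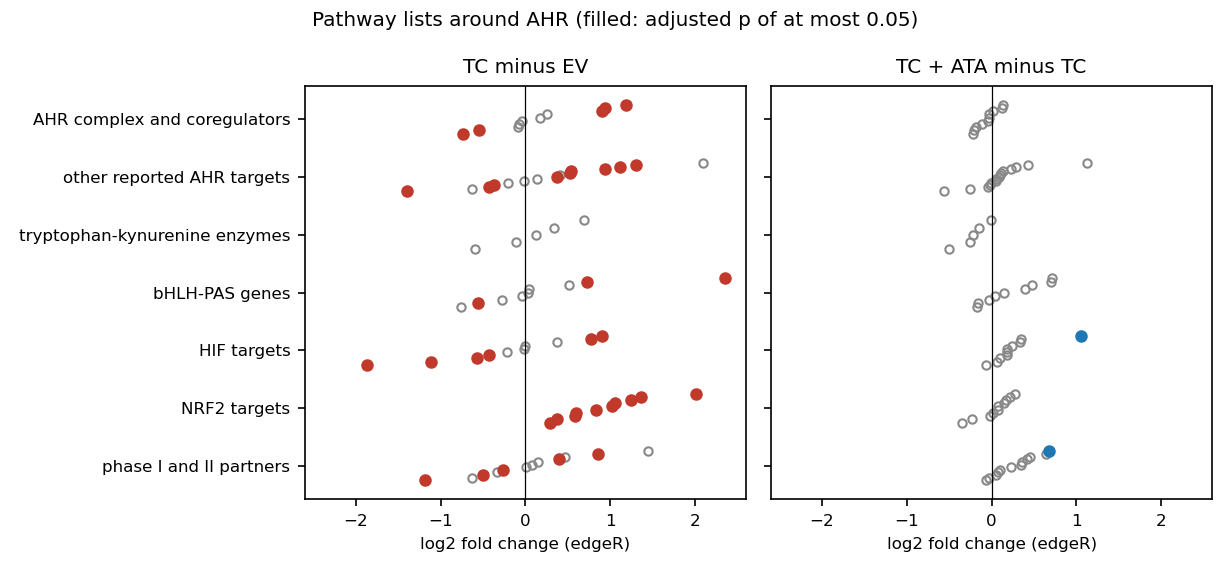
Log2 fold change of the tested genes of 7 lists (horizontal axes) at the fusion step and at the ATA step, 1 point per gene, filled where the adjusted p was at most 0.05. Ido2, without a count in EV and TC, is left out. All 10 NRF2 targets are filled and to the right of 0 at the fusion step, and 2 genes, Adm and Ephx1, are filled at the ATA step.

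The pattern of Cyp1b1, lowest in TC and highest in TC + ATA, was compared with that of 12711 tested genes with a mean of at least 1 CPM. Pearson's r of log2 CPM over the 6 libraries was at least 0.95 for 34 genes. The 5 most alike were Smad9 at r = 0.994, Asic1 at 0.991, Olfm1 at 0.990, Pdgfrb at 0.989 and Hba-a1 at 0.989. These values are descriptions over 6 libraries that share the same 3 groups, so a gene with the same order of group means reaches a high r.

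Smad9, a transducer of BMP signals, was at 5.0 and 3.82 CPM in EV, 2.74 CPM in TC and 7.58, 7.26 and 8.02 CPM in TC + ATA. Its log2 fold change was -0.69 ± 0.20 at the fusion step and 1.48 ± 0.20 at the ATA step, a wider swing than that of Cyp1b1. Pdgfrb, which encodes a receptor for platelet-derived growth factor, was at 117 and 104 CPM in EV, 97.3 CPM in TC and 143, 137 and 134 CPM in TC + ATA. The ion channel gene Asic1 had smaller log2 fold changes of -0.14 ± 0.08 and 0.42 ± 0.08 at these steps, and the olfactomedin gene Olfm1 had values near those of Cyp1b1, at -0.35 ± 0.16 and 0.91 ± 0.15. Hba-a1 is an alpha-globin gene with a near-identical copy whose reads may be hard to tell from its own. It had 74 and 72 counts in EV, 39 in TC and 90, 112 and 101 in TC + ATA.

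**Figure D4:**
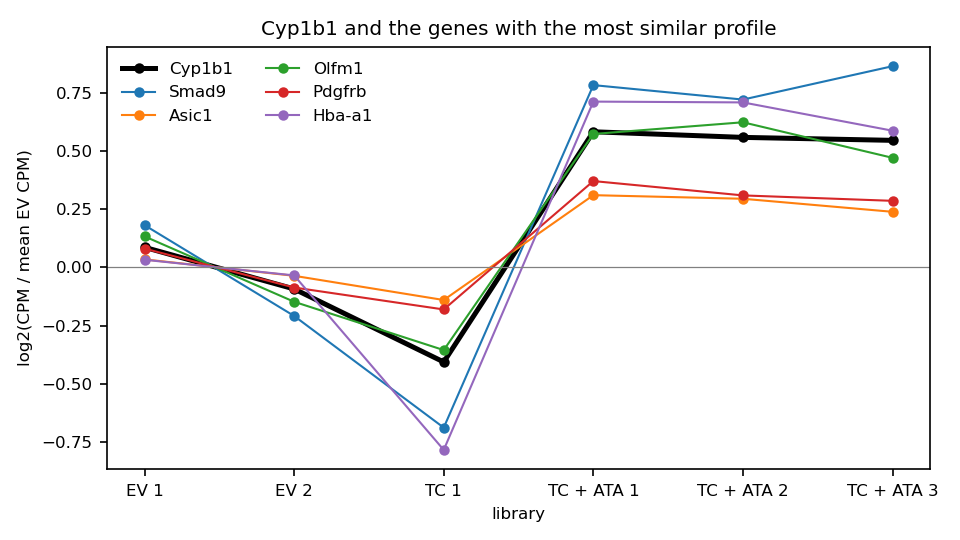
Log2 of the CPM of Cyp1b1 and of the 5 most alike genes in each library, relative to the mean of the EV libraries (vertical axis), with the libraries along the horizontal axis. Lines join the values of a gene and imply no order of the libraries. Every gene is lowest in the TC library and highest in the TC + ATA libraries.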

How the data were processed

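The authors aligned paired-end Illumina reads to GRCm38.p6 with HISAT2 in Galaxy (HISAT2 2.2.1 per the submitters' processing notes) and deposited raw counts per gene from featureCounts, without normalization. The annotation release and strand setting are not given in the sources used here. Gene symbols and positions came from GENCODE M21, which held 55141 of 55401 genes. Total counts per library were 58471484 to 74413193 and the fit had 3 residual degrees of freedom.

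The counts of all 6 libraries were fitted together in R 4.3.3 with edgeR 4.0.16 (TMM, filterByExpr, glmQLFit and glmQLFTest, Benjamini-Hochberg adjustment over 18539 genes), with a mean for each group. A gene was called at an adjusted p of at most 0.05. Standard errors were derived from the F statistic, and no library was dropped or imputed in the main fit. CPM values used TMM-scaled library sizes. The intervals of count ratios are exact 95% intervals for counting error only. The fit was also run on simulated counts with means, library sizes and dispersions taken from these libraries, to check the fold change estimates. That run could not test the assumption that TC varies as the other groups do.

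Groups and replicate numbers came from the labels. The members and the lists were chosen with earlier results of these data known. The named genes are the 10 members, in each list all genes called at the ATA step and up to 3 in each direction with the largest change called in TC versus EV (mean of 1 CPM or more), and the 5 genes most correlated with Cyp1b1. Ido2, Npas2 and the called fibroblast markers were named after their values were seen.

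The alternatives were DESeq2 1.42.0, library size and upper quartile scaling, no filter on low counts, at least 1 CPM in 2 libraries, a prior count of 2, a replicate block, only the groups compared, and each EV and TC + ATA library left out in turn. The single TC library could not be left out.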

Additional observations from a re-analysis of the deposited data

How the results depend on the processing

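TC rests on 1 library, and the counts at the ATA step (TC + ATA against TC) varied most with the processing. Against 79 genes called higher and 29 lower there, DESeq2 called 236 and 85, no filter on low counts gave 242 and 108, and only the groups compared gave 795 and 633. Leaving out each library in turn gave 7 to 808 higher and 3 to 762 lower at the ATA step, and 1912 to 3708 lower at the fusion step (TC against EV). The fits without an EV library leave EV with 1 library, which is assumed to vary like the others. For the members at the ATA step, 3 were called higher with DESeq2 and 3 without a filter (Cyp1b1, Nqo1 and Aldh3a1), 5 with only the groups compared (also Ahrr and Cyp1a1), and 0 to 4 when a library was left out. The members called lower were 0 at the fusion step with only the groups compared, and 0 to 1 for the combined change (TC + ATA against EV) when a library was left out, the 1 being Arnt without EV replicate 1. For the pathway lists, only the groups compared gave 8 called lower at the fusion step, and 11 higher and 4 lower at the ATA step. DESeq2, library size scaling and no filter gave 4, 4 and 4 list genes called higher at the ATA step, and leaving out a library gave 0 to 11 higher and 0 to 4 lower, with 9 to 17 lower for the combined change. The members called higher were 5 at the fusion step in all alternatives that were run, and 7 for the combined change in all but the filter of at least 1 CPM in 2 libraries, under which Ahrr was not tested and 6 were called. Where an alternative changed neither the samples nor the genes tested, the cause of a change was not tested.

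The labels give EV and TC + ATA libraries the numbers 1 and 2 alike. The deviations of same-numbered libraries from their group means correlated at -0.03 (number 1) and -0.09 (number 2). With 2 EV libraries the EV deviations mirror each other, so these values cannot show whether same-numbered libraries share a batch. With a replicate block, 1717 genes were called higher and 1467 lower at the fusion step, 32 and 8 at the ATA step, and 2195 lower for the combined change. For the lists the block gave 8 lower at the fusion step and 1 higher at the ATA step. Of the named genes, the block ended the fusion step calls of Ankrd37 (adjusted p = 0.188), Cyb5a (0.164), Cyb5r3 (0.188), Cdkn1b (0.0901), Pla2g4a (0.0696), Col1a1 (0.146) and Vim (0.0915), and the ATA step call of Ephx1 (0.107). It also ended the ATA step call of Olfm1 and the combined change calls of Cdkn1b, Ankrd37, Cyb5a, Col1a1 and Vim.

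Among the named genes, signs reversed for the following log2 fold changes. Under the block, Ugt1a6a had -0.242, Abcg2 0.036 and Pgk1 0.047 at the ATA step. At the fusion step, leaving out a library gave Ahrr -0.002 to 0.390, Arnt -0.056 to 0.005 and Ugt1a6a -1.310 to 0.047. For the combined change it gave Ugt1a6a -0.949 to 0.420 and Gstm1 -0.012 to 0.328. At the ATA step, Abcg2 had 0.009 and Vav3 0.001 with library size scaling, and Abcg2 had 0.000 with at least 1 CPM in 2 libraries. Leaving out a library gave Ereg -0.085 to 0.019, Vav3 -0.107 to 0.058, Npas2 -0.117 to 0.018 and Tpmt -0.039 to 0.175 there.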
